A study of Mus musculus with 6 samples.

Results

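The proximal steps of branched-chain amino acid (BCAA) catabolism and their control were followed through 9 genes in gastrocnemius (GAS) muscle. The genes were taken by symbol from the table of expected counts per gene, which lists 24054 genes, and all 9 were in it. They are the transaminases Bcat1 and Bcat2, the branched-chain ketoacid dehydrogenase (BCKDH) subunits Bckdha, Bckdhb, Dbt and Dld, the BCKDH kinase gene Bckdk, its phosphatase gene Ppm1k, and the transcription factor gene Klf15. The 6 libraries came from male C57BL/6 mice whose label gives a high fat diet, although the study describes its mice on chow. In 3 of them (MI4KO) a floxed Irf4 had been deleted with Myl1-cre, a Cre line selective for skeletal muscle fibres. In the other 3 (MI4OE) the same Cre line had switched on an Irf4 transgene at the Rosa26 locus. No age was given for these libraries. Other cell types of the muscle keep their own Irf4 as far as Cre is selective for fibres. Gastrocnemius from unmodified or flox controls was not analysed here, and every contrast given is therefore knockout against overexpressor.

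Leucine, isoleucine and valine are first stripped of their amino group by a branched-chain aminotransferase, which in muscle is mainly the mitochondrial enzyme BCAT2, while BCAT1 is cytosolic. The resulting ketoacids are committed to oxidation by BCKDH, a mitochondrial complex of a decarboxylase (E1, alpha subunit BCKDHA and beta subunit BCKDHB), an acyltransferase core (E2, DBT) and a dehydrogenase (E3, DLD) that it shares with the pyruvate and 2-oxoglutarate dehydrogenases. BCKDK phosphorylates the E1 alpha subunit and switches the complex off, PPM1K removes the phosphate, and KLF15 is a glucocorticoid-inducible regulator of amino acid catabolism in muscle.

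Promoter windows were examined because IRF4 binds interferon-stimulated response elements and KLF15 belongs to a family that binds CACCC boxes. RefSeq windows of GRCm38.p6, each 250 bases before and 50 after an annotated start, were held for 8 of the 9 genes, in 11 windows. The Dbt window was not held. On either strand, the core of the interferon-stimulated response element (a pair of GAAA runs parted by any 2 bases) was in 0 of the 11 windows and in 3.44% of 32851 windows of all genes. The composite Ets and IRF element, which differs from it only by GGAA as its first run, was in 0 of the 11 and in 2.72% of all. The box bound by the KLF family, searched as CCACCC, was in 2 of the 11 and in 31.5% of all. AGAACA, a half-site of the glucocorticoid response element, was in 2 of the 11 and in 19.0% of all. The motifs of IRF4 overlap each other in most letters, and the other motifs are distinct from them. The 3 windows with a match and that of Klf15, the regulator, are printed 5′ to 3′, with matches in capitals. A CACCC box on the minus strand reads GGGTGG here.
Bcat2 (chr7:45569903-45570202, plus strand): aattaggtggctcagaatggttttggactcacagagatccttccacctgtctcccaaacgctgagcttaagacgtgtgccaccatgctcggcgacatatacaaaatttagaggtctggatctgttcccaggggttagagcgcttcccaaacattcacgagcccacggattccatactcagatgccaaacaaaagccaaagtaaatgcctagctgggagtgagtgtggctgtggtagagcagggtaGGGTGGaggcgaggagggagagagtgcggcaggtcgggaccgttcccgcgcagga
Bckdhb (chr9:83924887-83925186, plus strand): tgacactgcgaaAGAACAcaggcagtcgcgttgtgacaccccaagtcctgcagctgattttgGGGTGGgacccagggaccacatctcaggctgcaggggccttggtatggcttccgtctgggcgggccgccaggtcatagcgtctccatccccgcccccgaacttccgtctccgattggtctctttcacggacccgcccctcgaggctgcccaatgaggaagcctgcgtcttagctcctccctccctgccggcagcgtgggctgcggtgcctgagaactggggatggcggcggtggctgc
Bckdk (chr7:127903823-127904122, plus strand): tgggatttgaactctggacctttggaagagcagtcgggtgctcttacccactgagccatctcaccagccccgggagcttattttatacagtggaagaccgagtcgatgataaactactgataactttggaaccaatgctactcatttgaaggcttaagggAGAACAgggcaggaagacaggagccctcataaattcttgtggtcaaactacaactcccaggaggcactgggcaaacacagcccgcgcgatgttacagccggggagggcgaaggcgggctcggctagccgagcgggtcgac
Klf15 (chr6:90462326-90462625, plus strand): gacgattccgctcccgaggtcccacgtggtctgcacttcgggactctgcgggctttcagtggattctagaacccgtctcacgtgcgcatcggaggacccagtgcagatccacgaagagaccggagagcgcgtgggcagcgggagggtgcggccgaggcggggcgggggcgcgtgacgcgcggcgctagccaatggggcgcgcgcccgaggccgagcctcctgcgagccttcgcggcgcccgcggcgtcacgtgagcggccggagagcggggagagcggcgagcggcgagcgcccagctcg
The Bcat2 match began 5 bases before the start. The Bckdhb window held an AGAACA 238 bases before the start and a CACCC box 188 bases before it, and the Bckdk window held an AGAACA 90 bases before the start. These are matches of letters in a short window and no binding was measured.

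Total expected counts ran from 18828605 to 29239585 per library. The manipulated gene followed its label in all 6, since the MI4KO replicates held 6, 0 and 2 counts of Irf4 and the MI4OE replicates 2864, 10557 and 5911. All 12 muscle fibre markers were present, at a summed 216848 to 385857 CPM (counts per TMM-scaled library size), and they included Ckm and Acta1. MI4OE replicate 1 stood apart with 6941 CPM of slow-fibre markers. MI4OE replicate 3 followed at 673 CPM, and the remaining libraries, all of MI4KO among them, had 31.3 to 137.5 CPM. MI4KO replicate 1 stood apart in Fkbp5 and Foxo1, given with Klf15 below. MI4KO replicate 3 stood apart with 1007 CPM of adipocyte and 45.6 CPM of hepatocyte markers, where the others had at most 386 and 3.69 CPM. Endothelial markers summed to 159 to 249 CPM in MI4KO and 283 to 490 CPM in MI4OE, fibroblast markers to 564 to 1155 and 980 to 1299, and adipocyte markers to 185 to 1007 and 114 to 267. The adipocyte sums overlapped, but Fabp4 alone held 259.8 of the 266.6 CPM in MI4OE replicate 1. Of the 8 adipocyte markers tested, 5 did not overlap between the groups and were lower in MI4OE, namely Adipoq, Plin1, Cidec, Retn and Lep. Adipoq, for example, was at 9.58 to 81.4 CPM in MI4KO and 0.886 to 5.94 CPM in MI4OE. Fabp4, Cfd and Pck1 overlapped. Whether these differences in tissue make-up touch the BCAA genes was not tested. In whole muscle, fewer cells of a type and less RNA per cell cannot be told apart.

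No difference between the genotypes in these genes passed a test. Of the 9 genes, 8 passed the filter on low counts and Bcat1 did not. By edgeR's quasi-likelihood test 0 of the 8 had an adjusted p under 0.05, against 0.0237% of the 12660 genes tested, and 0 had an unadjusted p under 0.05, against 7.58%. The study's own criterion (1.5-fold, with an unadjusted p under 0.05) also took in 0 of them, against a background of 6.64%. DESeq2 and edgeR's exact test likewise called 0 of the 8 at an adjusted p under 0.05. The groups overlapped in all 8 genes, whereas they did not overlap in 12.9% of all genes tested. The median log2 fold change of MI4OE over MI4KO was -0.05 over the 8 genes and 0.00 over all genes tested, with 3 of the 8 higher and 5 lower. The 95% interval of the log2 fold change lay within 2-fold in both directions for all 8 genes and within 1.5-fold for 4, namely Bcat2, Bckdhb, Dld and Bckdk. Adjusted p ran from 0.849 to 0.974, and the two-sided exact permutation p from 0.4 to 0.9, where 0.1 is the smallest that 3 against 3 libraries can give.

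**Figure D1:**
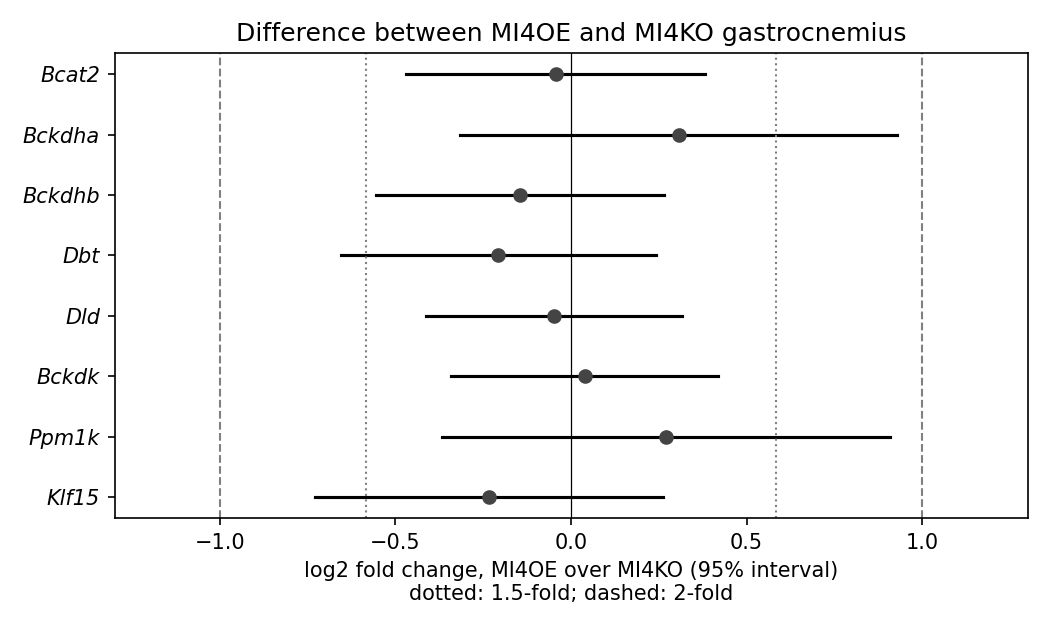
Log2 fold change of MI4OE over MI4KO (points) with its 95% interval (bars) for the 8 genes that passed the filter, from edgeR's quasi-likelihood fit. Every bar crosses 0 and stays inside the dashed 2-fold lines, and 4 of the 8 stay inside the dotted 1.5-fold lines.

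The spread within groups was close to that of comparably abundant genes. The intervals rest on variances that the fit drew towards a common trend, and not on this spread alone. The within-group SD of log2 CPM had a median of 0.23 over the 8 genes, 0.32 over all genes tested and 0.25 over the 7323 tested genes at least as abundant as Ppm1k. It was lowest for Dld at 0.11 and highest for Ppm1k at 0.40.

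Of the transaminases, Bcat2 held nearly all the transcripts. MI4KO replicates 1, 2 and 3 held 63.9, 55.1 and 79.2 CPM of it, and the MI4OE replicates held 62.6, 59.0 and 70.6 CPM. The MI4OE values lay wholly within the MI4KO range. The fitted log2 fold change, -0.04 ± 0.18 (SE), had a 95% interval from -0.47 to 0.38 and an adjusted p of 0.974. Bcat1 had 6, 0 and 4 expected counts in MI4KO and 1.04, 3 and 4 in MI4OE, from 0.00 to 0.04 TPM (RSEM's abundance adjusted for transcript length). Pooled over libraries and rounded, that was 10 counts in MI4KO and 8 in MI4OE, a rate ratio of 0.942 with an exact 95% interval of 0.323 to 2.65 that covers counting error only. Bcat2 made up 99.9% to 100% of the summed TPM of both transaminases in each library. Its share was 99.96% ± 0.040 (SD, n = 3) in MI4KO and 99.96% ± 0.019 (SD, n = 3) in MI4OE, with an exact permutation p of 0.9.

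RSEM divided the Bcat2 counts among 3 annotated transcripts. NM_009737 took 97.4% to 100% of the gene's abundance in 5 libraries and 69.5% in MI4OE replicate 1. There, NM_001243053 took 30.6% of the abundance, which was 374 of 1273 counts or 29.4%. It was at 0 counts in the other 5 libraries, where 3 counts would be 0.127% to 0.216% of the gene's total. That floor covers counting error only and takes every Bcat2 read as able to tell the transcripts apart, so the share that a 0 allows is larger. In the GENCODE M21 annotation of GRCm38, NM_001243053 has 12 exons and differs from the other transcripts by its first pair, chr7:45572869-45572950 and chr7:45575113-45575190, both ahead of the coding start. NM_009737 starts at exon 1, chr7:45570153-45570399, the start of the Bcat2 window printed above. The division is RSEM's estimate from single 50-base reads, and reads over the distinguishing exons were not counted here. MI4OE replicate 1 is also the library with the highest slow-fibre markers, and the part of those markers in the shift was not tested.

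**Figure D2:**
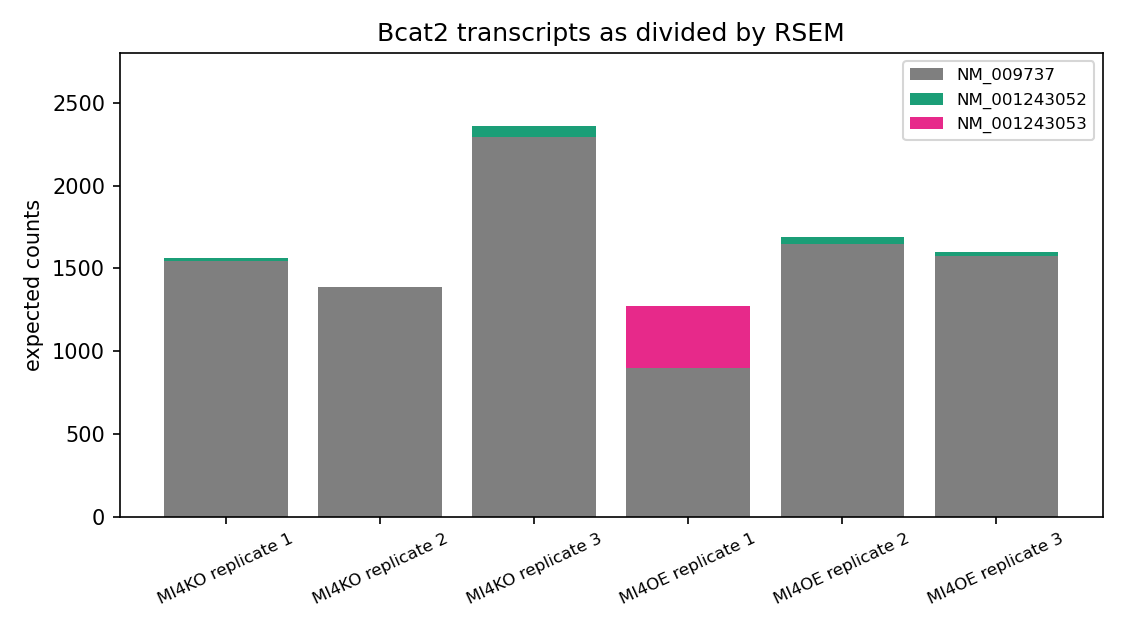
Expected counts of Bcat2 per library (bars), divided by RSEM among 3 transcripts (colours). NM_001243053 holds 374 counts in MI4OE replicate 1 and 0 in the other 5 libraries, while the gene's total runs from 1273 to 2358.

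The BCKDH subunits stood at unequal levels, in the same order in each of the 6 libraries. On the TPM scale Bckdha averaged 145 (range 108 to 207), Dld 92.7 (78.6 to 115), Bckdhb 21.9 (17.2 to 27.7) and Dbt 9.34 (6.10 to 12.7) over the 6 libraries. Bckdha was above Bckdk, the next gene of the 9, in 6 of 6 libraries without overlap of their ranges. Bckdk at 96.3 TPM was above Dld in 5 of 6, with overlapping ranges, so these neighbours were not separated. Bcat2 followed at 62.4 TPM, then Klf15 at 24.5 and Bckdhb at 21.9, whose ranges overlapped and which kept that order in 4 of 6 libraries. Dbt, Ppm1k at 2.11 TPM and Bcat1 closed the order, each below the gene before it in 6 of 6 libraries. TPM in MI4KO replicate 1 was the lowest of the 6 for 7 of the 8 tested genes, whereas on the TMM-scaled CPM it was the lowest for 2.

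**Figure D3:**
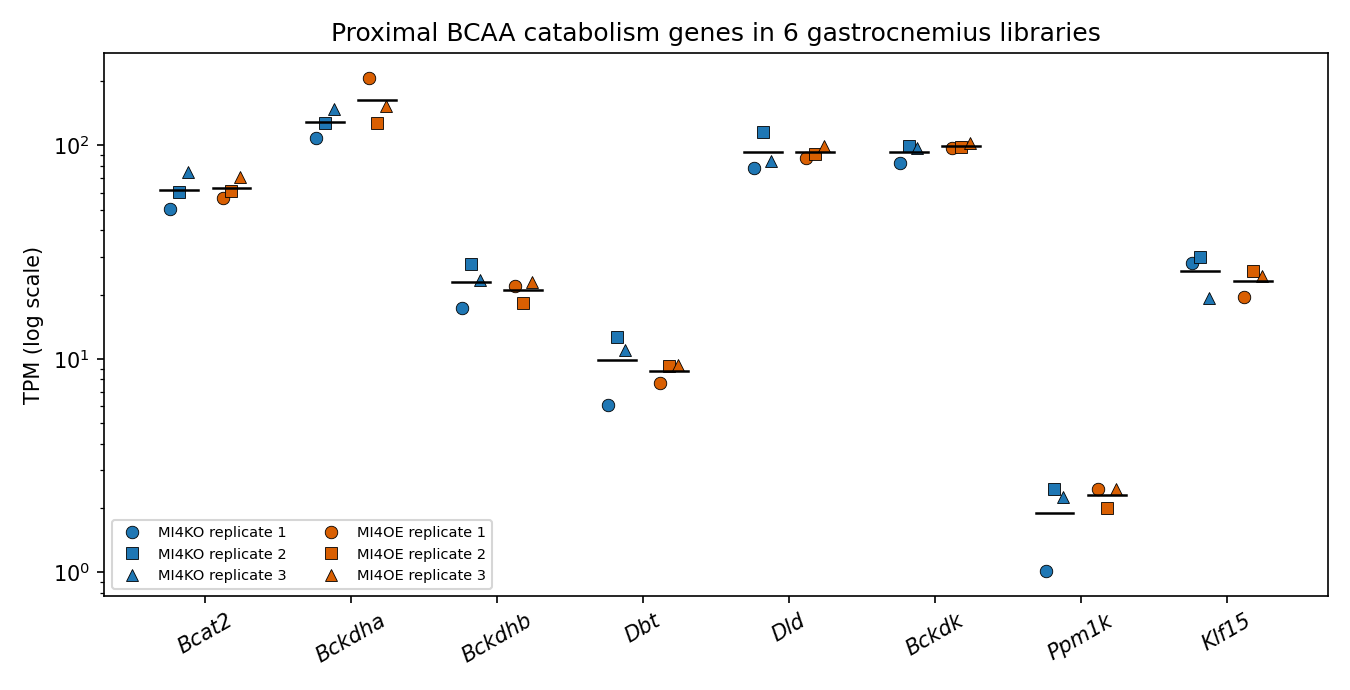
TPM on a log axis for the 8 tested genes in each of the 6 libraries (symbols), by genotype (colours), with the group mean as a line. The genotypes overlap in every gene, the 8 genes span from 1.01 TPM for Ppm1k to 207 TPM for Bckdha, and MI4KO replicate 1 is the lowest library for 7 of them.

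Bckdha, the catalytic E1 alpha subunit and the target of the kinase, had the largest fitted difference of the 8. MI4KO replicates 1, 2 and 3 held 138, 116 and 158 CPM of it, against 234, 122 and 152 CPM for the MI4OE replicates in turn. MI4OE replicate 1 was above every other library, and the other MI4OE libraries lay within the MI4KO range. The fitted log2 fold change was 0.31 ± 0.27 (SE), its 95% interval ran from -0.32 to 0.93, and the adjusted p was 0.849. Without MI4OE replicate 1, the library richest in slow-fibre markers, it was -0.0019. Pdhb, the E1 beta subunit of pyruvate dehydrogenase, was likewise highest in that library, at 257 CPM against 152 to 191 in the others.

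Bckdhb, the E1 beta subunit, was at 16.9, 19.6 and 19.2 CPM in MI4KO and 19.1, 13.6 and 17.6 CPM in MI4OE, with a log2 fold change of -0.15 (95% interval -0.56 to 0.26). Leaving out MI4OE replicate 2, its lowest library, gave -0.0163, and leaving out MI4OE replicate 1 gave -0.25. Dbt, the E2 core, was at 14.9, 22.4 and 22.3 CPM in MI4KO and 16.6, 17.1 and 17.8 CPM in MI4OE. The low MI4KO value was replicate 1, and the 3 MI4OE values lay between it and the other MI4KO libraries. Its log2 fold change was -0.21 (95% interval -0.66 to 0.24). Leaving out MI4KO replicate 1 gave -0.38, at an unadjusted p of 0.0409 and an adjusted p of 0.897 in edgeR's fit, whereas leaving out MI4KO replicate 2 or 3 gave -0.12 or -0.13. Dld, the E3 enzyme, varied least, from 115 to 137 CPM over all libraries, with a log2 fold change of -0.05 (95% interval -0.41 to 0.32).

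Within a library, E1 alpha and E1 beta transcripts were not present in equal amounts. The ratio of Bckdha to Bckdhb TPM was 6.30, 4.59 and 6.33 in MI4KO and 9.46, 6.91 and 6.69 in MI4OE, so the groups did not overlap. Its mean log2 was 2.50 ± 0.27 (SD, n = 3) in MI4KO and 2.92 ± 0.28 (SD, n = 3) in MI4OE, a difference of 0.42. The two-sided exact permutation p was 0.1, the smallest possible here, and 0.3 after Benjamini-Hochberg adjustment over the 3 within-library measures compared. The difference shrank to 0.26 when MI4OE replicate 1 was left out, and to 0.27 when MI4KO replicate 2 was. The matching ratio of pyruvate dehydrogenase, Pdha1 to Pdhb, was 1.09 to 1.43 in the 6 libraries. The ratio of Pdhb to Bckdhb also did not overlap, at 7.70 to 9.96 in MI4KO and 10.15 to 12.56 in MI4OE. That of Pdha1 to Bckdha did, at 1.62 to 2.23 and 1.45 to 2.15, and these ratios were not tested. Bckdha exceeded Dbt by 9.98- to 27.1-fold in TPM, and Dlat, the E2 core of pyruvate dehydrogenase, exceeded Dbt by 4.52- to 7.32-fold.

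The kinase gene was far above the phosphatase gene in every library. Bckdk was at 174, 150 and 171 CPM in MI4KO and 183, 156 and 169 CPM in MI4OE, with a log2 fold change of 0.04 (95% interval -0.34 to 0.42). Ppm1k was at 4.22, 7.41 and 7.83 CPM in MI4KO and 9.15, 6.33 and 8.04 CPM in MI4OE, from 103 to 233 expected counts. MI4KO replicate 1 was the low library and MI4OE replicate 1 the high one. The log2 fold change of Ppm1k was 0.27 (95% interval -0.37 to 0.91), and leaving out 1 library gave 0.03 at the lowest (MI4KO replicate 1 out) and 0.41 at the highest (MI4KO replicate 3 out). The ratio of Bckdk to Ppm1k TPM was 82.0, 40.2 and 43.5 in MI4KO and 39.7, 49.1 and 41.9 in MI4OE. MI4KO replicate 1 lay apart, and the other 5 libraries fell between 39.7 and 49.1. Mean log2 ratios were 5.71 ± 0.56 (SD, n = 3) in MI4KO and 5.44 ± 0.16 (SD, n = 3) in MI4OE, with an exact permutation p of 0.6, and the direction turned to 0.05 without MI4KO replicate 1. These are transcript ratios and carry no measure of the phosphorylation of the complex.

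**Figure D4:**
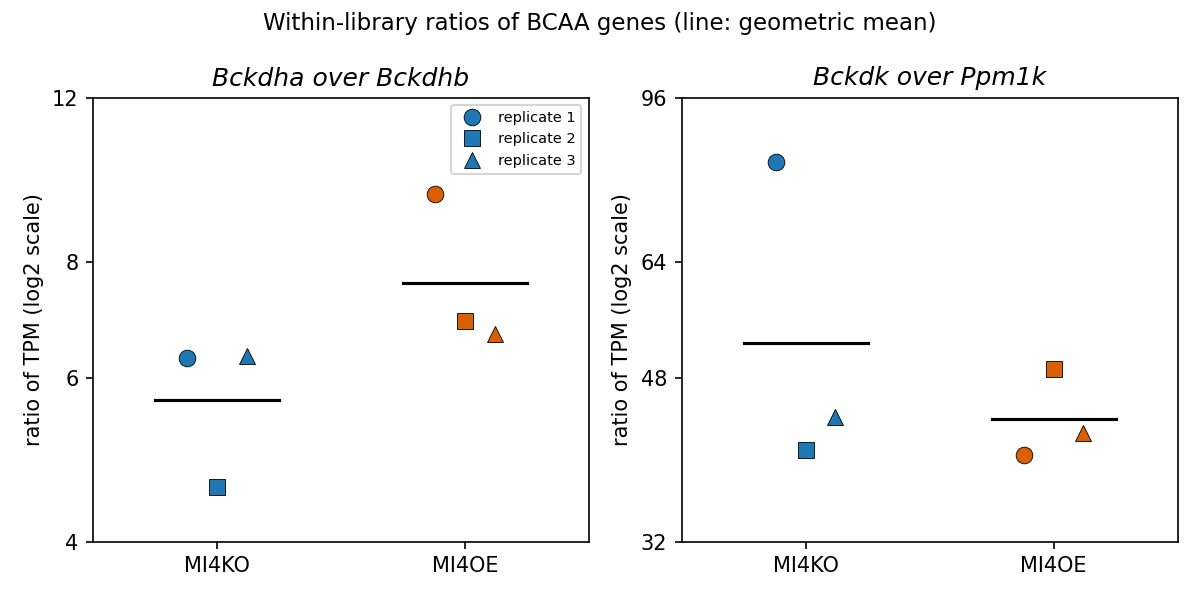
Ratio of Bckdha to Bckdhb TPM (left) and of Bckdk to Ppm1k TPM (right) per library on log2 axes, with replicates as symbols and the geometric mean of each group as a line. The E1 ratio runs from 4.59 to 6.33 in MI4KO and from 6.69 to 9.46 in MI4OE, and the kinase to phosphatase ratio reaches 82.0 in MI4KO replicate 1 alone.

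For Klf15 the MI4KO replicates held 46.8, 36.2 and 26.9 CPM, and the MI4OE replicates 29.0, 32.6 and 31.8 CPM. The MI4OE libraries lay close together, inside the wider MI4KO range. The fitted log2 fold change was -0.23 ± 0.21 (SE), its 95% interval ran from -0.73 to 0.26, and the adjusted p was 0.853. Leaving out MI4KO replicate 1 gave -0.03, and leaving out MI4KO replicate 3, the library with the high adipocyte and hepatocyte markers, gave -0.43. The part of those markers in the Klf15 difference was not tested. On the CPM scale MI4KO replicate 1, the highest library for Klf15, was also the highest for Fkbp5, a glucocorticoid-induced co-chaperone, at 148 CPM against 17.8 to 37.3, and for Foxo1, a fasting-responsive transcription factor, at 110 CPM against 19.7 to 26.1. It was highest too for Pdk4, the fasting-induced pyruvate dehydrogenase kinase, at 406 CPM against 156 to 322. In TPM, Klf15 was highest in MI4KO replicate 2, at 30.04 against 28.02 in replicate 1. Tsc22d3 (GILZ), another glucocorticoid target, reached 281, 248 and 193 CPM in the MI4KO replicates but 124, 162 and 170 CPM in the MI4OE ones, without overlap. Its fitted log2 fold change was -0.66 ± 0.21 (SE), and the adjusted p was 0.546.

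**Figure D5:**
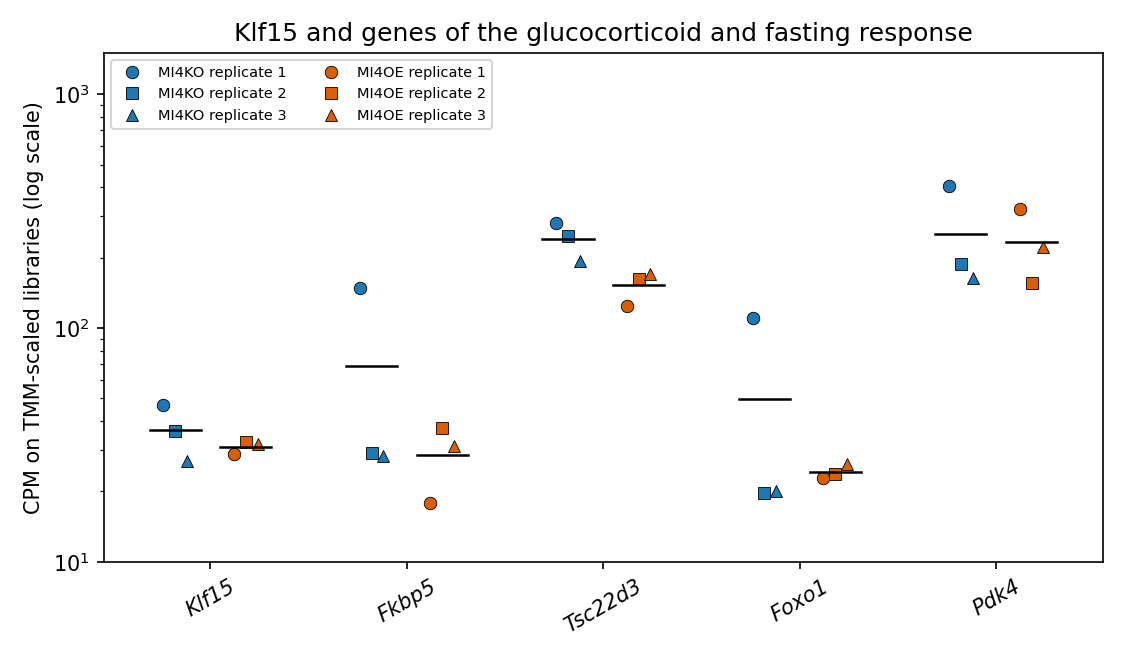
CPM on a log axis of Klf15, Fkbp5, Tsc22d3, Foxo1 and Pdk4 in each library (symbols) by genotype (colours), with the group mean as a line. MI4KO replicate 1 is the highest library for each of the 5 genes, and the genotypes overlap except for Tsc22d3.

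In a list of 30 genes tied to Klf15, the glucocorticoid receptor and fasting, 21 were lower in MI4OE and 9 higher. Their median log2 fold change was -0.40, against 0.00 over all genes tested. By the study's criterion 9 of the 30 were lower and 0 higher, where 2.28% of all genes tested were lower and 4.36% higher. The list was chosen with earlier results of these data known, so these counts are a description and not a test. It holds Fkbp5, Foxo1, Mt1 and Mt2, which the paper lists among the genes changed in both soleus and gastrocnemius. At an adjusted p under 0.05 the count was 0 of 30 with edgeR's quasi-likelihood test, 9 of 30 had an unadjusted p under 0.05 (7.58% of all genes tested did), and DESeq2 and edgeR's exact test each called 2, among 111 and 108 of all 12660 genes. The 9 were Tsc22d3, Cebpd, Sgk1, Ddit4, Mt2, Trim63, Gpt2, Glul and Angptl4. Ddit4, a stress-induced inhibitor of mTORC1 signalling, averaged 102 ± 78.1 CPM in MI4KO against 12.2 ± 7.07 CPM in MI4OE (SD, n = 3 each). Angptl4, an inhibitor of lipoprotein lipase, averaged 8.65 ± 4.38 and 2.23 ± 0.566 CPM (SD, n = 3). Their adjusted p values were 0.482 and 0.433 by the quasi-likelihood test. Got1 and Got2, the aspartate transaminases, had the smallest p among the 9 that were higher, with log2 fold changes of 0.72 and 0.46 and adjusted p of 0.726 and 0.791. Without MI4KO replicate 1 the count at the study's criterion was 4 of 30, namely Sgk1, Ddit4, Mt2 and Angptl4, and the median was -0.21. Over the fits that each left out 1 library it ran from 4 to 14, the highest without MI4KO replicate 3, while the share of all genes tested that were lower ran from 1.81% to 3.29%. That share stood at 2.56% in the fit lacking MI4KO replicate 1 and at 2.22% in the fit lacking MI4KO replicate 3. Without MI4OE replicate 2, 8 of the 30 were lower and 3 higher (Got1, Got2 and Ppara), against 3.29% and 6.94% of all genes. Adipocyte markers were also lower in MI4OE, all 8 tested, with a median log2 fold change of -3.655, or -2.467 without MI4KO replicate 3. By the study's criterion 7 of those 8 markers were lower, both with all libraries and without MI4KO replicate 3. The highest sum of adipocyte markers was 1007 CPM in MI4KO replicate 3, and the part of adipocyte markers in the counts of the 30 genes was not tested.

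In the rest of the BCAA pathway, 0 genes had an adjusted p under 0.05. Of 26 distal catabolic genes 25 were tested, 13 higher and 12 lower in MI4OE (median log2 fold change 0.02), and 0 met the study's criterion. For Mmaa, a chaperone of methylmalonyl-CoA mutase, the log2 fold change was 0.60 at an adjusted p of 0.685, and for Acaa2, a mitochondrial thiolase, 1.24 at 0.688. Acadsb and Mccc2, which act on isoleucine and leucine intermediates, had -0.27 and -0.22 (adjusted p 0.819 and 0.836). Without MI4OE replicate 2, 5 distal genes were higher by the study's criterion, namely Hadha, Hadhb, Acaa2, Mcee and Mmaa, in a fit where 6.94% of all genes tested were. A single distal gene was higher by it under 6 other alternatives, which was Acaa2 with no filter, DESeq2 or the exact test, Mmaa with total counts or limma on log2(TPM + 0.1), and Abat without MI4KO replicate 3. In those fits 4.01% to 5.34% of all genes tested were higher by the criterion, and 1 of 25 is near that share.

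Of 16 genes of BCAA transport and sensing 15 were tested, 5 higher and 10 lower. By the study's criterion 1 of the 15 was higher, where 4.36% of all genes tested were. It was Slc43a2, an amino acid transporter, at 8.39 ± 2.63 CPM in MI4KO against 16.8 ± 7.61 CPM in MI4OE (SD, n = 3 each; adjusted p 0.578), and it no longer met the criterion without MI4KO replicate 1, MI4KO replicate 3 or MI4OE replicate 1. Slc43a1, a related transporter, had a log2 fold change of 0.26. With both first libraries left out, Slc7a5 met the criterion as higher and Slc43a2 did not, where 1.90% of all genes tested were higher by it. Slc16a3, a monocarboxylate transporter, and Slc3a2, the heavy chain of the leucine transporter, had -0.72 and -0.26 (adjusted p 0.661 and 0.791). The groups did not overlap for Slc16a3, which met the criterion, lower in MI4OE, under 9 of the 17 alternatives, DESeq2, the exact test and both limma fits among them. In those fits 1.22% to 3.29% of all genes tested were lower by the criterion. Of 17 genes of the sister dehydrogenase complexes 16 were tested, 9 higher and 7 lower with a median of 0.08, and 0 met the criterion. Without MI4OE replicate 1 it took in 1 of them, Pdk3, as lower, against 2.20% of all genes. Pdhx had a log2 fold change of 0.18, Ogdh 0.19, Pdk3 -1.04 at under 1 CPM, and Dhtkd1 -0.56. Pdha1, Pdhb and Dlat had 0.14, 0.21 and 0.11.

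For each tested gene the most similar profile over the 6 libraries was sought among 8205 genes with a mean of at least 5 CPM, by Pearson's r of log2(CPM + 1). It was Vegfb for Bckdha (r = 0.9996), Kbtbd13 for Ppm1k (r = 0.997), Eif2b1 for Bckdk (r = 0.995) and Kdm4a for Klf15 (r = 0.989). The others were Ddost for Bcat2 (r = 0.98), Slc25a23 for Bckdhb (r = 0.98), Igtp for Dbt (r = 0.98) and Ugp2 for Dld (r = 0.94). Genes over an r of 0.95 numbered 373 for Bckdha and 246 for Bckdk, both highest in MI4OE replicate 1 by CPM. Ppm1k, also highest there, had 26, and the others had 0 to 18. All these points share the same 6 libraries. The best of 8205 genes over 6 points has a high r by selection alone, so these values are a description without a test. None of the 8 closest genes was another of the 9.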

How the data were processed

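RNA-seq was done on 6 gastrocnemius libraries, 3 per genotype, prepared with a stranded mRNA kit. By the labels and the published methods, the authors demultiplexed with bcl2fastq 2.17, mapped single 50-base reads to a UCSC transcript set with Bowtie2 2.1.0 and quantified with RSEM 1.2.15. The genome build and the strand setting are not given in the sources used here. The deposited expected counts per gene and transcript are RSEM estimates, not normalized. The deposited TPM values come from RSEM and allow for transcript length, and the deposited percent per transcript is its share of its gene. RSEM shares a read among the transcripts it matches. Fractional counts per gene, beyond a tolerance of 0.005, were found for Bckdhb, Bckdk and Ppm1k in all 6 libraries, Dbt in 4 and Bcat1 in 1. The authors' comparison tables, with fold changes, p-values and 12 library columns, were not used.

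Groups came from the genotype label. Replicate numbers follow deposition order. Titles carry distinct numbers and the methods count 3 muscles per genotype, but no source used here says outright that each came from its own mouse, so p-values measure the spread between these libraries. Rounded counts went into edgeR 4.0.16 under R 4.3.3 (filterByExpr at a minimum count of 10 and total of 15, TMM, glmQLFit and glmQLFTest, Benjamini-Hochberg over 12660 genes). Standard errors and 95% intervals came from the fitted means, dispersions and squeezed variances. Permutation tests were exact and two-sided, on log2(CPM + 0.01) or on within-library TPM measures. Alternatives changed the filter (none, or a mean CPM of 1), the scaling (RLE, total counts, or TMM leaving out the 100 most abundant genes), the test (DESeq2 1.42.0, the edgeR exact test, limma 3.58.1 on log2(TPM + 1) and log2(TPM + 0.1)) or the libraries included. Scripts were tested on simulated counts. The genes, lists and alternatives were chosen with earlier results of these data known. Named genes were the 9, Irf4, the 2 tested genes with the smallest p per direction in each pathway list, 7 comparators (Pdha1, Pdhb, Dlat, Pdk4, Fkbp5, Tsc22d3 and Foxo1), and the gene most alike to each tested gene. Genes that met the study's criterion in a list were named after their values were seen. Marker lists also covered macrophages, Schwann cells, satellite cells, erythrocytes and hepatocytes, whose summed CPM ran from 34.1 to 86.6, 30.9 to 253, 5511 to 7551, 112 to 463 and 0.0883 to 45.6 over the libraries. Des alone held 5485.5 to 7493.7 CPM of the satellite cell sum. Every other satellite cell marker was at 52.2 CPM or less, and Pax7 at 1.59 CPM or less.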

Additional observations from a re-analysis of the deposited data

Results flagged for a closer look

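Of the transcript estimates, which enter no test between the genotypes, Bcat2 transcript NM_001243053 was singled out because it held 374.3 expected counts in MI4OE replicate 1 and 0 in the other 5 libraries, MI4KO included. The groups of 3 were too small for a test of single outlying libraries.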

How the results depend on the processing

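Under the 17 alternatives 0 of the 8 tested BCAA genes had an adjusted p under 0.05 or met the study's criterion, and their median log2 fold change ran from -0.11 to 0.04. Directions turned for 6 of the 8. Bcat2 was at 0.0444 and Dld at 0.0441 with total counts, 0.0387 and 0.0158 with limma on log2(TPM + 1), and 0.0394 and 0.0161 on log2(TPM + 0.1), where the median of all genes stood at 0.0896, 0.0426 and 0.0612. Without both first libraries Bckdha was at -0.00034, Ppm1k at -0.0909 and Klf15 at 0.0262, the kinase to phosphatase difference was 0.12 and that of the Bcat2 share -0.0243 percentage points. Without 1 library, Bcat2 ran from -0.17 to 0.0924, Bckdha from -0.0019 to 0.49, Bckdk from -0.0388 to 0.0918, Dld from -0.12 to 0.0029, the kinase to phosphatase difference from -0.46 to 0.0525, the E1 difference from 0.26 to 0.51 and the Bcat2 share from -0.0154 to 0.0242 percentage points. Bckdhb and Dbt kept their direction in each of the 17. Over all genes, the count at an adjusted p under 0.05 went from 3 to 111 under DESeq2, to 108 under the exact test of edgeR, and from 1 to 4 without 1 library. That at the study's criterion went from 841 to 468 with limma on log2(TPM + 1), and from 590 to 1314 without 1 library. The cause was not tested. Bias-adjusted deviances, added after the data were seen, gave 4 and 867. No paired analysis was possible because the numbers of the libraries reflect deposition order and no label ties a MI4KO library to a MI4OE one. Depth limits Bcat1 most, at 0 to 6 counts a library, and then Ppm1k, at 103 to 233.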
